A study of Callithrix jacchus and Rattus norvegicus and Loxodonta africana with 31 samples.

Results

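Rat kidney was compared with rat liver in 4 RNA sequencing libraries, 2 of each organ, out of 31 samples in the whole series and 12 rat samples. The kidney group held 1 male and 1 female library of kidney, and the liver group held 1 male and 1 female library of liver. Within each sex the labels give both organs the same individual number, so kidney and liver were compared within each of 2 animals. With 1 animal of each sex, sex and individual cannot be told apart. All 4 libraries came from the polyadenylated RNA fraction, and the labels name no treatment or mutation. The sources used here do not give the strain, the age or the part of the kidney sampled. Levels were in FPKM, sequenced fragments scaled by the length of the transcript and the size of the library. The series as a whole was made for work on Y chromosome genes, and its panel of tissues allows the contrast of these organs. A second group of genes was drawn from the same table, those high in both organs: 227 of 20473 rows (1.11%), each at least 2 units of log2(FPKM + 1) above every heart and brain library in all 4 kidney and liver libraries.

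Kidney and liver are both built largely of polarized epithelial cells that move solutes between blood and a second fluid, urine in one case and bile in the other. Hepatocytes, the main cells of the liver, make most plasma proteins, build bile acids, turn ammonia into urea and process drugs. The kidney tubule is a line of segments that recover salts, sugars, amino acids and water from the filtrate, and the glomerulus at its head filters plasma through podocytes. Proximal tubule cells and hepatocytes share some work: both make glucose from precursors and both degrade amino acids.

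The labels of the organs were checked against marker lists. Plasma protein genes summed to 386 and 148 FPKM in male and female kidney, against 183723 and 120996 FPKM in liver. Proximal tubule genes summed to 29634 and 22655 FPKM in male and female kidney, against 525 and 368 FPKM in liver. Most of the kidney sums came from 1 gene, Kap, at 17413 and 18078 FPKM in male and female kidney. Each list stood far higher in both libraries of its own organ. The libraries differed in total: summed FPKM without mitochondrial rows was 570134 and 310638 in male and female kidney, against 1651286 and 811569 in male and female liver. The 10 highest genes held 16.6 and 13.7% of that sum in male and female kidney, against 35.9 and 17.6% in male and female liver. Levels of testis genes in the other libraries were read in a set chosen to be low there, so the low level itself follows from the choice. A set of 40 genes with at least 500 FPKM in testis and under 10 FPKM in every other library summed to 54.9 and 28.2 FPKM in male and female kidney, against 22.3 and 58.8 FPKM in male and female liver, and 37, 15, 9 and 35 of the 40 were above 0 in those libraries. The same genes summed to 18.1 and 51.4 FPKM in male and female heart, 34.1 and 33.4 FPKM in male and female brain and 35.6 FPKM in ovary. The part of RNA from other organs in these low values was not tested. Over the 10 named genes furthest above liver, the highest level was 0.450 and 3.75 FPKM in male and female liver, 1.51 and 23.4 FPKM in male and female heart. Over the 10 furthest below liver, it was 7.45 and 0.494 FPKM in male and female kidney.

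Of 12173 genes tested, 1866 were higher in kidney than in liver (15.3%) and 2081 were lower (17.1%), together 32.4%. The test was limma, a linear model fitted across all genes. Passing took an adjusted p (Benjamini-Hochberg) under 0.05 together with a difference of at least 1 on the log2(FPKM + 1) scale. Differences are given on that scale as kidney minus liver with the standard error, so a positive value means higher in kidney, and changes of genes at low levels are understated by the added 1. The median difference of all genes tested was -0.10. Rescaling each library by its median ratio moved that median to 0.07, and 2182 genes were then higher and 1696 lower. Without the female kidney library the lower genes numbered 1125, and without the male kidney library 1241, against 2081 with all libraries. All 3947 genes that passed differed in the same direction in both animals. A gene with opposite directions in the animals could hardly pass this test, so the agreement adds no support of its own. In bulk tissue, fewer cells of a type and less RNA per cell cannot be told apart. Of the genes that passed, 204 of those higher were listed at 0 in both liver libraries and 53 of those lower at 0 in both kidney libraries. For such genes levels are given and no difference, since a listed 0 may be a failed estimate. A gene could enter the test by its level in 1 organ: 1159 genes tested reached 1 FPKM in kidney and in no liver library, and 498 in liver and in no kidney library. Such members of a list had to differ, so list counts and medians are descriptions. Each list count below stands against the same shares of all genes tested, 15.3% higher and 17.1% lower.

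**Figure D1:**
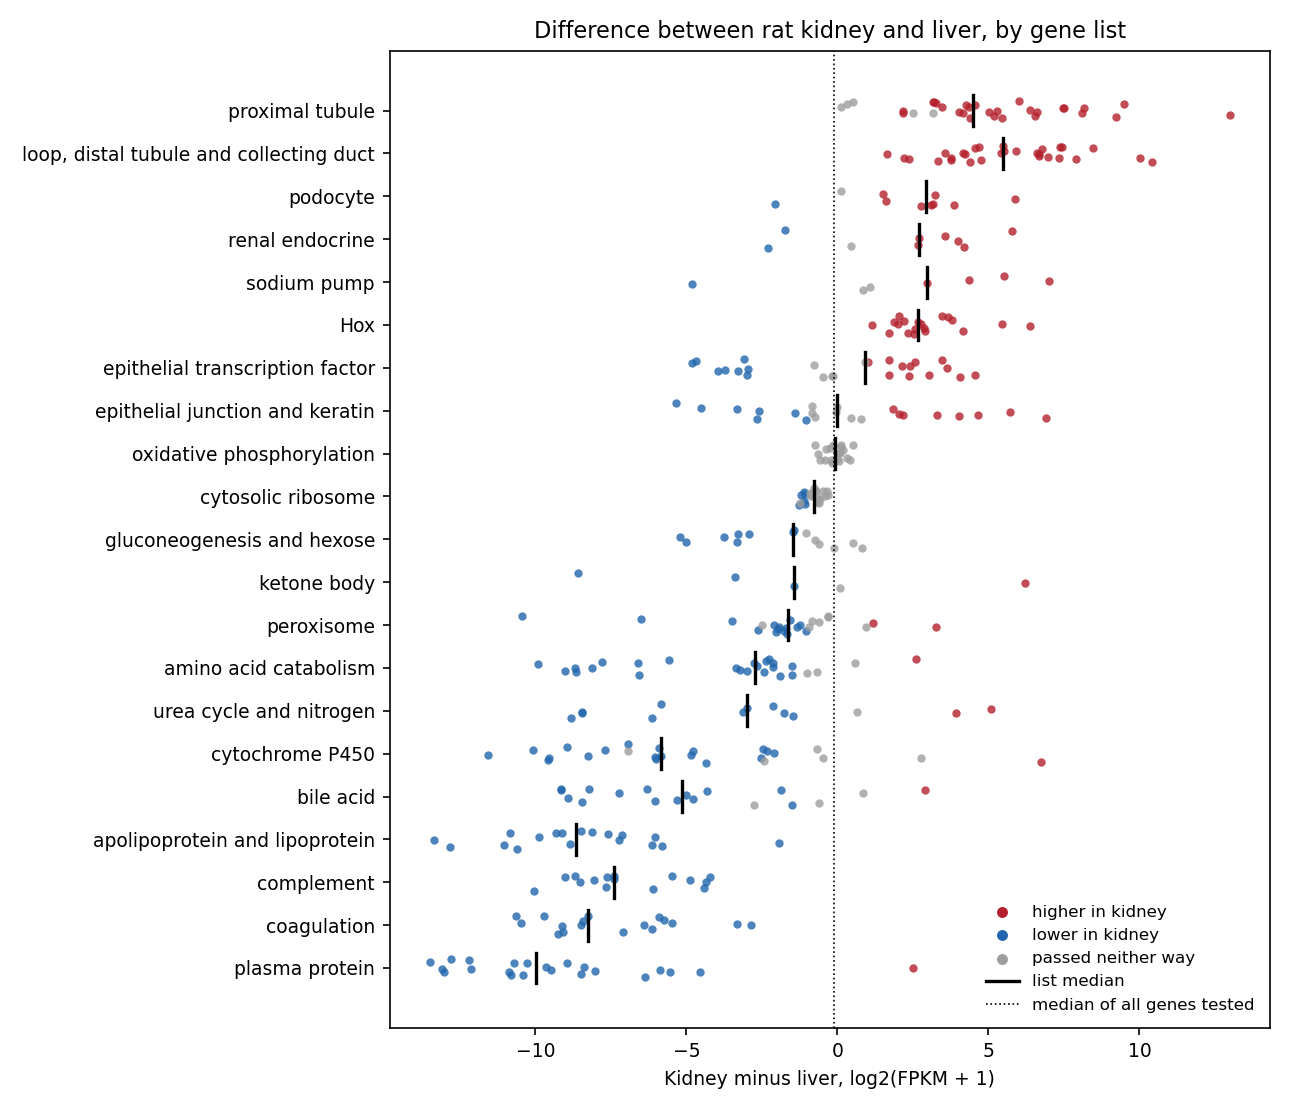
Each point is 1 tested gene of a list (rows), placed by its difference between kidney and liver on the log2(FPKM + 1) scale. Red points passed as higher in kidney, blue as lower, grey as neither; black bars are list medians and the dotted line the median of all genes tested (-0.10). Genes listed at 0 in both libraries of an organ, Alb among them, are plotted at their fitted difference. Tubule lists sit to the right with medians of 4.48 and 5.48, and lists of secreted liver proteins to the left with medians of -7.40 to -9.96.

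The gene furthest above liver was Kap, the kidney androgen-regulated protein described in mouse proximal tubule, with 17413 and 18078 FPKM in male and female kidney, against 0 and 3.75 FPKM in liver. Its difference was 12.99 ± 0.97 (limma adjusted p = 0.00022). Defb1, an antimicrobial defensin of epithelia, followed with 10117 and 4000.0 FPKM in male and female kidney, against 0 and 0.801 FPKM in liver (difference 12.21 ± 0.93). No value of either gene in kidney overlapped a value in liver, and liver levels of both were listed at 0 in the male. Tmem213 had 3706 and 511 FPKM in male and female kidney and was listed at 0 in both livers. Klk1, the tissue kallikrein that releases kinins, stood at 1294 and 1077 FPKM in male and female kidney, against 0 and 0.224 FPKM in liver. Klk1c7, another kallikrein, stood at 1093 and 826 FPKM in male and female kidney, against 0 and 1.12 FPKM in liver. These are members of a family of near-identical genes, so the split of reads between them is uncertain. Umod encodes uromodulin, the main protein of normal urine, and had 1072 and 1664 FPKM in male and female kidney, against 0 and 0.622 FPKM in liver. Dnase1, a secreted enzyme that cuts DNA, had 1914 and 933 FPKM in male and female kidney, against 0 and 0.697 FPKM in liver. The difference was 10.04 ± 0.23 for Umod and 10.00 ± 0.53 for Dnase1. The transporter genes Slc34a1, Slc7a13 and Slc3a1 completed the leading 10 with a symbol. Of the 10 rows with the largest differences, 1 carried no symbol.

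**Figure D2:**
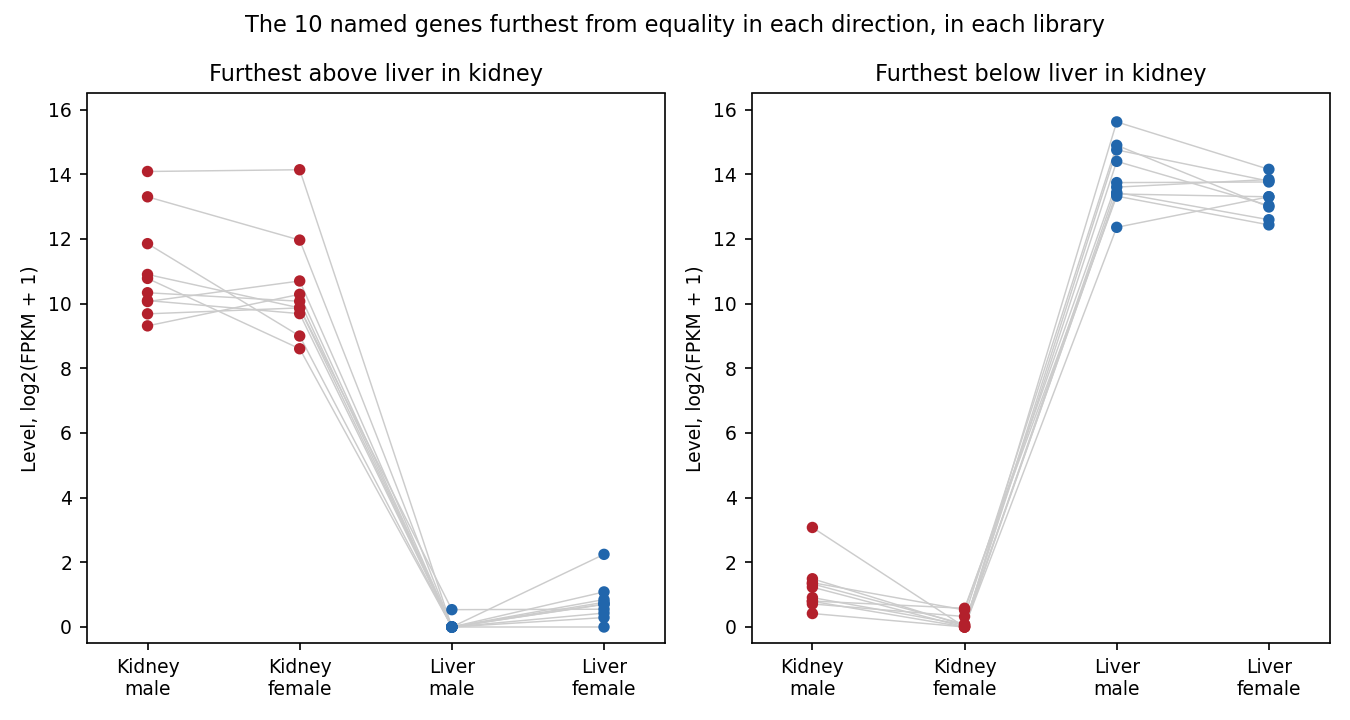
Levels of the 10 symbol-bearing genes furthest above liver (left panel) and the 10 furthest below (right panel), as log2(FPKM + 1) in the male and female kidney libraries (red) and the male and female liver libraries (blue); grey lines join the values of 1 gene. Each gene separates the organs in both animals, from Kap at 17413 and 18078 FPKM in male and female kidney to Serpina1 at 27664 and 14165 FPKM in male and female liver.

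Proximal tubule genes were higher in kidney in 27 of 32 members tested and lower in none, with a median difference of 4.48 against -0.10 for all genes. Of the 32, 19 reached 1 FPKM in no liver library. Without the 5 listed at 0 in both livers the median was 5.03. Slc34a1, the sodium-phosphate cotransporter of the brush border, had 1759 and 389 FPKM in male and female kidney, against 0 and 0.348 FPKM in liver. Slc3a1, the heavy subunit of the cystine transporter, had 822 and 934 FPKM in male and female kidney, against 0.45 and 0.464 FPKM in liver. The differences were 9.48 ± 0.70 for Slc34a1 and 9.23 ± 0.24 for Slc3a1 (limma adjusted p = 0.00021 and 7.83e-06). Slc7a13, an amino acid exchanger of the late proximal tubule, stood at 635 and 1250.1 FPKM in male and female kidney, against 0 and 0.636 FPKM in liver. Ggt1, the gamma-glutamyltransferase that breaks down glutathione in the lumen, had 961 and 366 FPKM in male and female kidney, against 0.883 and 1.32 FPKM in liver. Miox, which opens the inositol ring, had 3734 and 800.1 FPKM in male and female kidney, against 2.85 and 9.38 FPKM in liver. Slc6a18, a neutral amino acid transporter, had 206 and 169.7 FPKM in male and female kidney, against 0 and 0.0898 FPKM in liver. Every kidney value of these 6 genes lay far above every liver value.

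Not every transporter of the segment separated the organs. Slc17a1, a sodium-dependent phosphate and organic anion transporter, had 136 and 98.2 FPKM in male and female kidney, against 132 and 84.9 FPKM in liver, a difference of 0.12 ± 0.24 (limma adjusted p = 0.701). Its relative Slc17a3 had 296 and 140.1 FPKM in male and female kidney, against 151 and 173 FPKM in liver. The values of the organs overlap for both genes. Slc4a4, the basolateral bicarbonate transporter, was low in both organs at 2.76 and 1.83 FPKM in male and female kidney, against 0.745 and 2.04 FPKM in liver, with a difference of 1.04 (adjusted p = 0.0345) without the female kidney library. Slc7a7, a basolateral transporter of cationic amino acids, had 115 and 8.61 FPKM in male and female kidney, against 4.20 and 5.59 FPKM in liver, and missed the threshold (limma adjusted p = 0.0752). Without the female kidney library its difference was 4.41 (adjusted p = 0.00569). Slc22a8, an organic anion transporter also called Oat3, had 197 and 89.7 FPKM in male and female kidney, against 172 and 0.31 FPKM in liver. Male liver alone lay within the range of the kidney values for Slc22a8, and without it the difference was 6.40 (adjusted p = 0.000991).

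Levels of proximal tubule genes were also uneven between the animals. In kidney, 18 of the 32 tested members were at least 1 unit higher in the male than in the female and 1 was at least 1 unit lower, with a median male minus female difference of 1.10. Over all tested genes the median was 0.175, and 1726 of 12173 were at least 1 unit higher in male kidney (14.2%) and 476 in female kidney (3.91%). Slc5a2, the main glucose transporter of the early proximal tubule, had 103 and 3.10 FPKM in male and female kidney and was listed at 0 in both livers. Slc34a3, a sodium-phosphate cotransporter, had 116 and 2.18 FPKM in male and female kidney and was likewise listed at 0 in liver. Slc22a2, the organic cation transporter Oct2, had 365 and 23.0 FPKM in male and female kidney, against 0 and 0.239 FPKM in liver. The call for Slc22a2 (limma adjusted p = 0.00398) rests on kidney values that lie far apart. Slc5a2 passed with all libraries (limma adjusted p = 0.0254) and missed without the male liver library (adjusted p = 0.171). Slc34a3 passed with all libraries (limma adjusted p = 0.0418) and missed without the male liver library (adjusted p = 0.246) or the female liver library (adjusted p = 0.0645). With 1 library of each sex these male and female values have no error and no test.

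Genes of the loop of Henle, distal tubule and collecting duct were higher in kidney in 29 of 29 members tested, with a median difference of 5.48. Of the 29, 26 reached 1 FPKM in no liver library. The median was 6.61 without the 8 listed at 0 in both livers, and 29 of 29 passed without each kidney or liver library in turn. Umod and Tmem213 led the list. Calb1, the calcium-binding protein of the distal tubule, had 333 and 282 FPKM in male and female kidney, against 0 and 0.624 FPKM in liver, a difference of 7.92 ± 0.28 (limma adjusted p = 1.36e-05). Slc12a3, the thiazide-sensitive sodium chloride cotransporter, had 196 and 165 FPKM in male and female kidney, against 0 and 0.0695 FPKM in liver. Cdh16, a cadherin of kidney epithelium, had 174 and 174 FPKM in male and female kidney, against 0 and 0.132 FPKM in liver. None of these genes exceeded 1 FPKM in a liver library. Slc12a1, the furosemide-sensitive cotransporter of the thick ascending limb, stood at 107 and 263 FPKM in male and female kidney, against 0 and 0.0723 FPKM in liver. Aqp2, the water channel that vasopressin moves to the membrane of the collecting duct, stood at 86.0 and 131 FPKM in male and female kidney, against 0 and 0.112 FPKM in liver. Between the animals, 6 of 29 were at least 1 unit higher in male kidney (20.7%, against 14.2% of all genes tested) and 4 in female kidney (13.8%, against 3.91%), with a median male minus female difference of -0.08.

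Podocyte genes were higher in kidney in 8 of 10 members tested and lower in 1 (0 without the male kidney library), with a median of 2.94. Nphs1, which encodes nephrin of the slit diaphragm, had 3.26 and 10.2 FPKM in male and female kidney, against 0 and 0.00983 FPKM in liver. Podxl, the charged coat protein of podocytes, had 22.9 and 33.1 FPKM in male and female kidney, against 1.08 and 0.818 FPKM in liver. Ptpro, a receptor phosphatase, CLIC5, a protein of podocyte foot processes, and Wt1, a podocyte transcription factor, had differences of 3.17, 3.25 and 3.10. Plce1, a phospholipase of podocytes, passed neither way, at 0.439 and 1.81 FPKM in male and female kidney, against 1.10 and 0.605 FPKM in liver. The member that was lower in kidney had a difference of -2.055.

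Genes by which the kidney sends or receives hormonal signals were higher in kidney in 6 of 9 members tested and lower in 2. Kl, the co-receptor for the phosphate hormone FGF23, had 55.4 and 53.8 FPKM in male and female kidney, against 0 and 0.0268 FPKM in liver, a difference of 5.78 ± 0.19 (limma adjusted p = 1.13e-05). The vitamin D receptor gene Vdr had 14.8 and 21.8 FPKM in male and female kidney, against 0.0405 and 0.039 FPKM in liver. Cyp24a1, the enzyme that inactivates vitamin D, had 15.6 and 7.44 FPKM in male and female kidney and was listed at 0 in both livers. Pth1r, the parathyroid hormone receptor, had 276 and 85.8 FPKM in male and female kidney, against 30.9 and 16.7 FPKM in liver. Agtr1a, an angiotensin receptor, was lower in kidney, with 20.1 and 18.4 FPKM in male and female kidney, against 93.5 and 102 FPKM in liver (difference -2.28 ± 0.22). Ddc, which makes dopamine in the proximal tubule, was also lower in kidney, with 17.1 and 17.0 FPKM in male and female kidney, against 43.5 and 80.6 FPKM in liver. Ddc missed the threshold without the female kidney library (-1.29, adjusted p = 0.0539) and without the female liver library (-1.52, adjusted p = 0.0588). Enpep, an angiotensin-cleaving peptidase, passed neither way at 62.8 and 24.0 FPKM in male and female kidney, against 21.6 and 37.2 FPKM in liver, with the female kidney value between the liver values.

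The sodium pump, which drives transport along the whole tubule, was higher in kidney in 4 of 7 subunit genes tested and lower in 1. Over all genes tested, 15.3% were higher and 17.1% lower. The beta subunit gene Atp1b1 had 1595 and 1146 FPKM in male and female kidney, against 23.2 and 35.7 FPKM in liver, a difference of 5.50 ± 0.38 (limma adjusted p = 0.000156). Regulatory subunits of the FXYD family differed in direction. Fxyd2, the gamma subunit, stood at 2628 and 945 FPKM in male and female kidney, against 16.1 and 7.79 FPKM in liver. Fxyd4, another regulatory subunit, stood at 15.1 and 24.6 FPKM in male and female kidney with both livers listed at 0. Fxyd1, known from heart and muscle, was lower in kidney at 15.3 and 10.5 FPKM in male and female kidney, against 556 and 262 FPKM in liver (difference -4.81 ± 0.30).

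On the liver side, secreted proteins stood apart the most. Plasma protein genes were lower in kidney in 21 of 22 members tested, with a median of -9.96. Serpina1, which encodes alpha-1-antitrypsin, had 1.81 and 0.0359 FPKM in male and female kidney, against 27664 and 14165 FPKM in liver, a difference of -13.50 ± 0.31 (limma adjusted p = 7.83e-06). Ahsg, which encodes fetuin-A, had 1.35 and 0 FPKM in male and female kidney, against 12457 and 14659.6 FPKM in liver. Hp, which encodes the haemoglobin-binding haptoglobin, had 1.52 and 0.0621 FPKM in male and female kidney, against 21644 and 8390.0 FPKM in liver. These 3, with Rup2, Apoc1, Crp, Apoa2, Ttr, Fabp1 and Hpx, were the 10 named genes furthest below liver of all genes tested. Crp, the C-reactive protein of the acute phase, had 0.879 and 0.0463 FPKM in male and female kidney, against 10751 and 10119.9 FPKM in liver. Ttr, the thyroid hormone carrier transthyretin, had 1.59 and 0.441 FPKM in male and female kidney, against 13718 and 13912 FPKM in liver. Fabp1, the fatty acid binding protein of hepatocytes, had 0.733 and 0 FPKM in male and female kidney, against 5259.9 and 10127 FPKM in liver. Hpx, the haem carrier hemopexin, had 0.744 and 0.494 FPKM in male and female kidney, against 10267 and 5542 FPKM in liver. Rup2, named in the table without a role given here, had 0.639 and 0.251 FPKM in male and female kidney, against 30545 and 8135 FPKM in liver. Tf, which encodes the iron carrier transferrin, had 14.9 and 8.44 FPKM in male and female kidney, against 27388 and 17646 FPKM in liver. Orm1, an acute phase glycoprotein, had 1.62 and 0.0632 FPKM in male and female kidney, against 6746 and 8219 FPKM in liver. Alb, the albumin gene, was the exception: it was listed at 0 in both livers and had 8.61 and 2.41 FPKM in male and female kidney, so its call as higher in kidney (limma adjusted p = 0.0217) rests on a 0 that can be a failed estimate. That call was lost without the female kidney library (adjusted p = 0.189), the male kidney library (adjusted p = 0.196) or the male liver library (adjusted p = 0.111).

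Coagulation genes were lower in kidney in 17 of 17 members tested (median -8.27), complement genes in 15 of 15 (median -7.40) and apolipoprotein and lipoprotein genes in 18 of 18 (median -8.66). Of these, 8 coagulation, 8 complement and 11 apolipoprotein and lipoprotein genes reached 1 FPKM in no kidney library. Such genes entered the test by their liver levels and had to differ, so the 3 counts are descriptions. Among clotting factors, Fgg, a chain of fibrinogen, had 1.64 and 1.37 FPKM in male and female kidney, against 5184 and 3136 FPKM in liver. Plg, the plasminogen gene, had 0.174 and 0.0361 FPKM in male and female kidney, against 1881 and 1295 FPKM in liver. Fgb, another fibrinogen chain, Serpind1, a thrombin inhibitor, CPB2, an inhibitor of clot breakdown, and the contact factor F12 had differences of -9.70, -9.26, -9.12 and -9.08. Serpinf2, the plasmin inhibitor, was nearest to equality, with 131 and 67.1 FPKM in male and female kidney, against 816 and 579.8 FPKM in liver (difference -2.86 ± 0.27). C3, the central complement protein, had 1.77 and 0.884 FPKM in male and female kidney, against 2903 and 2025 FPKM in liver, a difference of -10.05 ± 0.23 (limma adjusted p = 7.83e-06). C4bpa, which binds complement C4, had 0.0132 and 0.0677 FPKM in male and female kidney, against 655 and 450.3 FPKM in liver. C9, C8a and C8b, parts of the membrane attack complex, had differences of -8.69, -8.04 and -7.66. Cfi, a protease that inactivates complement, had a difference of -8.51.

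Among apolipoproteins, Apoc1 had 7.45 and 0 FPKM in male and female kidney, against 50413 and 18235 FPKM in liver. Of the main proteins of high density lipoprotein, Apoa1 had 0.498 and 0.227 FPKM in male and female kidney, against 4887 and 1666 FPKM in liver. Apoa2, the other, had 0.335 and 0 FPKM in male and female kidney, against 11119 and 6192 FPKM in liver. Apoc3, which slows the clearance of lipoprotein triglyceride, had 16.2 and 5.12 FPKM in male and female kidney, against 23573 and 10974 FPKM in liver. Apoh, a phospholipid-binding plasma protein, had 1.78 and 0.363 FPKM in male and female kidney, against 3255 and 3976 FPKM in liver. Apoc4 was listed at 0 in both kidneys with 577 and 1518 FPKM in male and female liver. Apoe, the ligand for lipoprotein uptake, reached 404 and 37.7 FPKM in male and female kidney, against 29061 and 10594 FPKM in liver. Its kidney values lie far apart and both stay below the liver values. Apom, which is made by hepatocytes and proximal tubule, came nearest to equality with 343 and 202 FPKM in male and female kidney, against 1050.2 and 984 FPKM in liver (difference -1.95 ± 0.29, limma adjusted p = 0.00316).

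Bile acid genes were lower in kidney in 14 of 18 members tested and higher in 1, with a median of -5.15. The uptake and conjugation genes led. Slc10a1, the sodium-coupled bile acid importer of hepatocytes, had 1.54 and 0.0325 FPKM in male and female kidney, against 1313 and 649 FPKM in liver, a difference of -9.16 ± 0.26 (limma adjusted p = 8.15e-06). Slc27a5, which activates bile acids with coenzyme A, had 0.0948 and 0 FPKM in male and female kidney, against 680.2 and 515 FPKM in liver. Baat, which conjugates them, had 0.509 and 0.265 FPKM in male and female kidney, against 452 and 379.8 FPKM in liver. Slco1b3, an organic anion importer, had 0.118 and 0 FPKM in male and female kidney, against 306 and 443 FPKM in liver. For synthesis, Cyp7a1, the rate-limiting enzyme, had 0.0154 and 0 FPKM in male and female kidney, against 61.1 and 102 FPKM in liver. Cyp8b1, which sets the share of cholic acid, had 0.278 and 0 FPKM in male and female kidney, against 750.5 and 389 FPKM in liver. Akr1d1, a steroid reductase of the same path, was listed at 0 in both kidneys with 164 and 134 FPKM in male and female liver. Slc51a, the alpha subunit of the basolateral bile acid exporter, went the other way, with 11.4 and 3.49 FPKM in male and female kidney and both livers listed at 0. Another 3 members passed neither way. Cyp7b1, an oxysterol hydroxylase, had 2.15 and 1.92 FPKM in male and female kidney, against 102 and 3.17 FPKM in liver, with male liver far above the other libraries. Without the female liver library its difference was -4.98 (adjusted p = 0.000443). Fgfr4, the receptor for the intestinal hormone FGF15, had 28.3 and 12.7 FPKM in male and female kidney, against 47.0 and 18.1 FPKM in liver. Slc10a2, the bile acid importer of ileum and proximal tubule, had 2.00 and 3.47 FPKM in male and female kidney, against 3.20 and 0 FPKM in liver, and without the male liver library its difference was 2.02 (adjusted p = 0.00553).

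Urea cycle and nitrogen genes were lower in kidney in 10 of 13 members tested and higher in 2, with a median of -2.98. Cps1, the first enzyme of the cycle, had 0.143 and 1.62 FPKM in male and female kidney, against 881 and 696 FPKM in liver. Otc, the second, had 0.143 and 0.131 FPKM in male and female kidney, against 404 and 386 FPKM in liver. The differences were -8.82 ± 0.42 and -8.44 ± 0.20 (limma adjusted p = 4.39e-05 and 7.83e-06). Nags, which makes the activator of Cps1, differed by -5.83. Ass1, which the kidney uses to make arginine, was present in both organs, with 413 and 183 FPKM in male and female kidney, against 2446 and 2325 FPKM in liver (difference -3.11 ± 0.34). Glul, the glutamine synthetase gene, passed neither way, with 289 and 364 FPKM in male and female kidney, against 151 and 282 FPKM in liver, and its female liver value lies just below the male kidney value.

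Amino acid catabolism was lower in kidney in 22 of 26 genes tested and higher in 1, with a median of -2.71. Mat1a, which makes the methyl donor S-adenosylmethionine in liver, had 0.186 and 0 FPKM in male and female kidney, against 1198 and 923 FPKM in liver, a difference of -9.92 ± 0.21 (limma adjusted p = 7.83e-06). Tdo2, which opens the breakdown of tryptophan, had 0.0513 and 0 FPKM in male and female kidney, against 821 and 336 FPKM in liver. Tat, which opens that of tyrosine, had 0.125 and 0.111 FPKM in male and female kidney, against 392 and 515 FPKM in liver. Bhmt, which remethylates homocysteine with betaine, had 19.4 and 9.27 FPKM in male and female kidney, against 6648 and 5211 FPKM in liver. Agxt, an alanine-glyoxylate aminotransferase, and Hal, the histidine ammonia-lyase, differed by -8.11 and -7.78. Dao, the D-amino acid oxidase of proximal tubule peroxisomes, was higher in kidney at 739 and 326 FPKM in male and female kidney, against 113 and 57.6 FPKM in liver (difference 2.59 ± 0.41, limma adjusted p = 0.00426), and missed without the male kidney library (2.15, adjusted p = 0.0805). Kmo and Aass, of the tryptophan and lysine paths, and Agxt2, a mitochondrial aminotransferase, passed neither way with differences of -0.99, -0.68 and 0.59.

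Cytochrome P450 genes were lower in kidney in 19 of 25 members tested and higher in 1, with a median of -5.84. This family holds near-identical copies, so the split of reads among its members is uncertain. Cyp2c7 had 0.964 and 0 FPKM in male and female kidney, against 1382 and 13177 FPKM in liver, a difference of -11.57 ± 0.91 (limma adjusted p = 0.000266). Cyp1a2, which oxidizes caffeine and aromatic amines, had 0.109 and 0.0614 FPKM in male and female kidney, against 1410.5 and 984 FPKM in liver. Cyp2a1, Cyp2b3 and Cyp2d3 differed by -9.58, -9.56 and -8.95. Cyp4a8, a fatty acid hydroxylase, was higher in kidney, with 202 and 85.9 FPKM in male and female kidney, against 0.411 and 0.0951 FPKM in liver (difference 6.74 ± 0.34). Its relative Cyp4a2 followed the animal more than the organ, with 3675 and 272 FPKM in male and female kidney, against 2069 and 9.18 FPKM in liver, and passed neither way (limma adjusted p = 0.241). Without the male liver library its difference was 5.83 (adjusted p = 0.032). Cyp2c23, an arachidonic acid epoxygenase, had 369 and 375 FPKM in male and female kidney, against 469 and 741 FPKM in liver, and Cyp4b1, an omega-hydroxylase, had 85.1 and 240.0 FPKM in male and female kidney, against 173 and 226 FPKM in liver. Both passed neither way (limma adjusted p = 0.102 and 0.479).

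Peroxisome genes were lower in kidney in 15 of 24 members tested and higher in 2, with a median of -1.63. Of the 24, 7 were lower without the female kidney library, 9 without the male liver library and 10 without the male kidney library. Uox, the urate oxidase gene, had 0.0942 and 0 FPKM in male and female kidney, against 1885 and 1113 FPKM in liver, a difference of -10.44 ± 0.24 (limma adjusted p = 7.83e-06). Pxmp2, a channel of the peroxisomal membrane, had 44.7 and 41.5 FPKM in male and female kidney, against 469.6 and 508 FPKM in liver. Crat, a carnitine acetyltransferase, was higher in kidney at 97.4 and 34.3 FPKM in male and female kidney, against 29.7 and 20.7 FPKM in liver (limma adjusted p = 0.0443) and missed without the male kidney library (0.63, adjusted p = 0.219), female liver (1.36, adjusted p = 0.153) or male liver library (1.02, adjusted p = 0.264).

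Of 5 ketone body genes tested, 3 were lower in kidney, 1 was higher and 1 passed neither way. Oxct1, the enzyme that lets tissues burn ketone bodies and that hepatocytes lack, was higher in kidney with 144 and 138 FPKM in male and female kidney, against 0.382 and 1.59 FPKM in liver (difference 6.23 ± 0.31, limma adjusted p = 4.79e-05). Bdh1, which acts in both directions, was lower in kidney at 15.1 and 13.2 FPKM in male and female kidney, against 180.1 and 136 FPKM in liver. Acat1, shared by synthesis and use, passed neither way at 95.3 and 97.5 FPKM in male and female kidney, against 101 and 79.8 FPKM in liver, and its values overlap between the organs.

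Of 14 genes of gluconeogenesis and hexose metabolism tested, 8 were lower in kidney, none was higher and 6 passed neither way, with a median of -1.46. After rescaling the libraries 6 were lower and 1 higher, and without the female kidney library or the female liver library 5 were lower. Among those lower in kidney, Gys2, the liver glycogen synthase, had 0.0134 and 0.395 FPKM in male and female kidney, against 50.7 and 36.5 FPKM in liver. Pfkfb1, which sets the level of a glycolytic signal, had 0.108 and 0.757 FPKM in male and female kidney, against 85.1 and 22.7 FPKM in liver. Pygl, which breaks down liver glycogen, had 10.2 and 14.9 FPKM in male and female kidney, against 152 and 116 FPKM in liver. Slc2a2, the low-affinity glucose transporter, had 17.0 and 9.57 FPKM in male and female kidney, against 167 and 109 FPKM in liver. Nearer to equality were 2 others. Pc, the pyruvate carboxylase that starts the path, had 107 and 30.1 FPKM in male and female kidney, against 213 and 116 FPKM in liver, and Slc37a4, which carries glucose-6-phosphate into the endoplasmic reticulum, had 145 and 29.2 FPKM in male and female kidney, against 288 and 116 FPKM in liver. Both passed as lower in kidney (limma adjusted p = 0.0418 and 0.0471). Both missed without the female kidney, female liver or male liver library (adjusted p = 0.275, 0.173 and 0.173 for Pc, and 0.306, 0.184 and 0.189 for Slc37a4), and Slc37a4 also without the male kidney library (adjusted p = 0.0509). The genes that passed neither way included those of further steps of glucose synthesis and of fructose use. Pck1, the first committed enzyme, had 356 and 257 FPKM in male and female kidney, against 519 and 202 FPKM in liver, a difference of -0.10 ± 0.38 (limma adjusted p = 0.861), and both kidney values lie between the liver values. Fbp1, the fructose bisphosphatase, had 287 and 184 FPKM in male and female kidney, against 389 and 322 FPKM in liver. For Fbp1 both kidney values lie below both liver values (limma adjusted p = 0.143). Pck2, the mitochondrial form of Pck1, had a difference of 0.53, Khk, the fructokinase, -0.73, and Slc2a5, a fructose transporter, 0.82.

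Several functions are carried by a pair of related genes, and 14 such pairs were compared. In 8 of the 14 the member on the kidney side was higher in kidney and the other lower in kidney. Arginase was split between Arg2, the mitochondrial form, with 30.6 and 35.8 FPKM in male and female kidney and both livers listed at 0, and Arg1, the urea cycle form. Arg1 had 0.4 and 1.09 FPKM in male and female kidney, against 688 and 525 FPKM in liver. Mat2a, which makes S-adenosylmethionine outside the liver, had 46.0 and 117 FPKM in male and female kidney, against 4.46 and 5.28 FPKM in liver, the reverse of Mat1a. Lactate dehydrogenase was split between Ldhb and Ldha. Ldhb had 449 and 336 FPKM in male and female kidney, against 3.20 and 3.81 FPKM in liver, and Ldha had 88.9 and 60.6 FPKM in male and female kidney, against 981 and 553 FPKM in liver (differences 6.44 ± 0.29 and -3.31 ± 0.36).

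Glycolytic isozymes followed the same split. Pkm, a pyruvate kinase of many tissues, had 58.7 and 48.8 FPKM in male and female kidney, against 4.81 and 5.10 FPKM in liver. Pklr, the liver form, had 37.6 and 5.71 FPKM in male and female kidney, against 90.4 and 159.9 FPKM in liver. Pklr missed without the female kidney library (-1.44, adjusted p = 0.0927) or female liver library (-1.88, adjusted p = 0.156). Gys1 differed by 1.73, the reverse of Gys2. Among water channels, Aqp1, of proximal tubule and thin limb, had 294 and 286 FPKM in male and female kidney, against 9.42 and 17.2 FPKM in liver. Aqp9, which also carries glycerol into hepatocytes, had 0.0534 and 0 FPKM in male and female kidney, against 330.1 and 206 FPKM in liver. Hao2, an oxidase of long-chain hydroxyacids, had 2251 and 1097 FPKM in male and female kidney, against 479.9 and 55.4 FPKM in liver. Hao1, the glycolate oxidase, had 1.49 and 0.32 FPKM in male and female kidney, against 228 and 115 FPKM in liver. Hao2 (difference 3.25 ± 0.91, limma adjusted p = 0.0322) missed without the female kidney, male kidney or female liver library (adjusted p = 0.225, 0.231 and 0.178). For the membrane a subunit of the proton pump, Atp6v0a4, of acid-secreting cells, had 129.5 and 93.4 FPKM in male and female kidney, against 0 and 0.197 FPKM in liver. Atp6v0a1, a more widely used form, had 14.1 and 13.9 FPKM in male and female kidney, against 24.5 and 41.2 FPKM in liver. Atp6v0a1 missed without the female kidney, male kidney or female liver library (adjusted p = 0.177, 0.101 and 0.193).

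**Figure D3:**
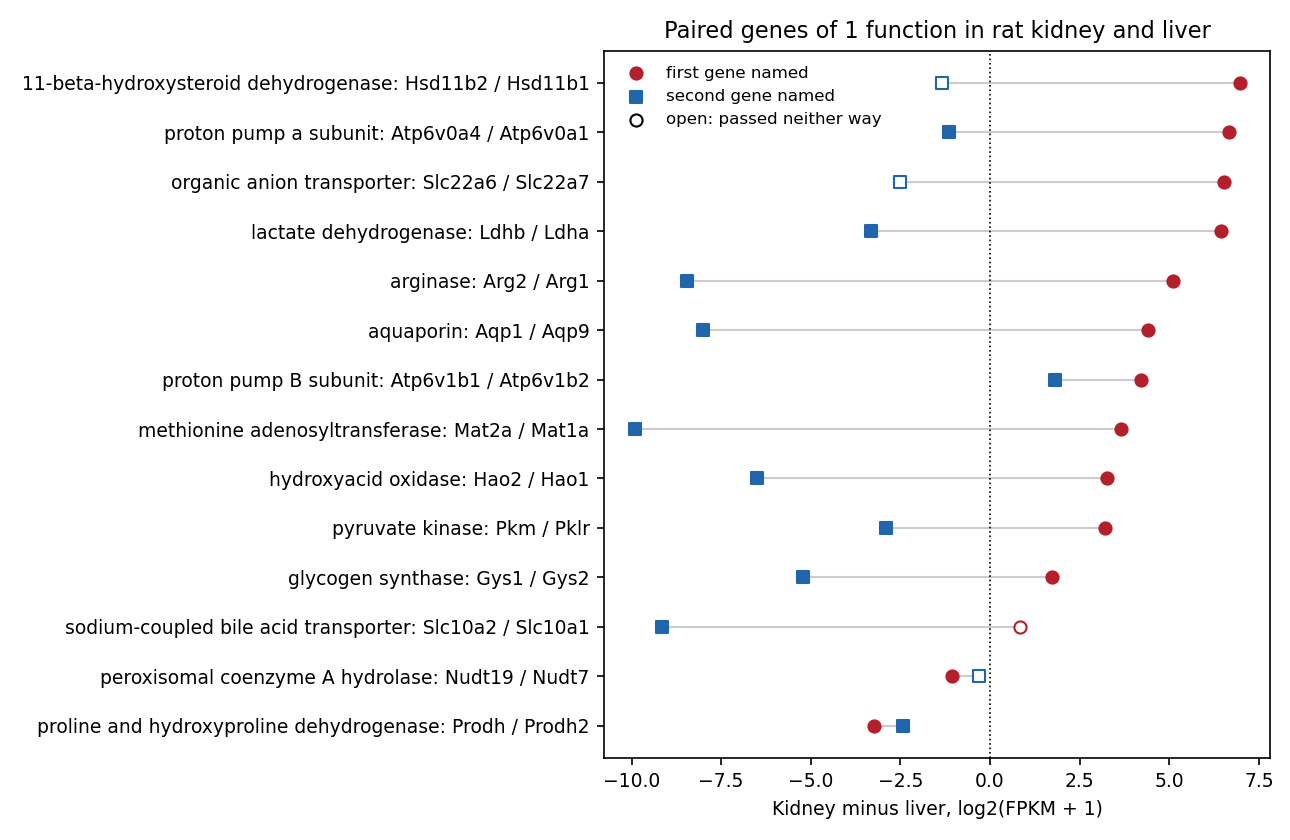
Each row is a pair of genes of 1 function; circles mark the first and squares the second gene named, placed by kidney minus liver on the log2(FPKM + 1) scale, and open symbols passed neither way; Arg2, at 0 in both livers, is plotted at its fitted difference. In 8 of 14 pairs the filled circle lies right of 0 and the filled square left of it, as for Mat2a (3.67) and Mat1a (-9.92).

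The other 6 pairs did not split in this way. Hsd11b2, which shields the mineralocorticoid receptor from glucocorticoid in the distal tubule, had 659.6 and 228 FPKM in male and female kidney, against 1.49 and 2.92 FPKM in liver (difference 6.96 ± 0.53, limma adjusted p = 0.000244). Its counterpart Hsd11b1, which regenerates glucocorticoid, passed neither way at 263 and 81.4 FPKM in male and female kidney, against 1170.3 and 118 FPKM in liver. Without the female liver library the difference of Hsd11b1 was -2.31 (adjusted p = 0.0236). Slc22a6, the organic anion transporter Oat1, had 236 and 99.9 FPKM in male and female kidney, against 0.526 and 0.815 FPKM in liver. Slc22a7, or Oat2, had 6.51 and 79.2 FPKM in male and female kidney, against 157 and 123 FPKM in liver, with male kidney far below the other libraries. Without the female kidney library the difference of Slc22a7 was -4.33 (adjusted p = 0.00553). Both B subunits of the proton pump were higher in kidney. Atp6v1b1, of acid-secreting cells, had 11.4 and 27.8 FPKM in male and female kidney, against 0 and 0.0307 FPKM in liver, and Atp6v1b2 had 107 and 57.3 FPKM in male and female kidney, against 20.7 and 22.8 FPKM in liver. Atp6v1b2 missed without the male kidney or male liver library (adjusted p = 0.0543 and 0.0844). Both genes of the proline and hydroxyproline dehydrogenase pair were lower in kidney, with differences of -3.22 for Prodh and -2.42 for Prodh2. Prodh2 missed without the female kidney, female liver or male liver library (adjusted p = 0.0608, 0.104 and 0.0521). Nudt19, a coenzyme A hydrolase first studied in mouse kidney peroxisomes, was lower in kidney at 30.0 and 8.21 FPKM in male and female kidney, against 55.9 and 20.6 FPKM in liver, and missed without any 1 of the 4 libraries (adjusted p = 0.0594 to 0.136). Nudt7, its liver counterpart, passed neither way at 32.7 and 25.5 FPKM in male and female kidney, against 51.3 and 25.4 FPKM in liver. The remaining pair joined Slc10a1 with Slc10a2, of which the second passed neither way.

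Transcription factors known from these epithelia divided into 12 higher in kidney, 8 lower and 5 neither, of 25 tested. Over all genes tested, 15.3% were higher and 17.1% lower. Of the 25, 10 reached 1 FPKM in no liver library and 6 in no kidney library, so the division is a description. Pax8, which directs kidney development, had 23.6 and 32.4 FPKM in male and female kidney, against 0.276 and 0.164 FPKM in liver (difference 4.56 ± 0.23, limma adjusted p = 4.76e-05). Tfcp2l1, of the collecting duct, had 14.2 and 28.9 FPKM in male and female kidney, against 0.261 and 0.299 FPKM in liver. Foxa2, a pioneer factor of hepatocytes, had 0 and 0.0161 FPKM in male and female kidney, against 26.8 and 27.4 FPKM in liver, and its relative Foxa3 had 0.128 and 0.025 FPKM in male and female kidney, against 19.8 and 12.1 FPKM in liver. Nr1i3, the xenobiotic receptor CAR, had 0.0282 and 0.112 FPKM in male and female kidney, against 60.8 and 11.4 FPKM in liver, and missed without the male kidney library (-4.03, adjusted p = 0.0541). Cebpa, a regulator of hepatocyte metabolism, had 6.80 and 1.34 FPKM in male and female kidney, against 128 and 24.0 FPKM in liver. Hnf4a, a nuclear receptor of both epithelia, had 71.0 and 33.8 FPKM in male and female kidney, against 63.9 and 48.0 FPKM in liver, and passed neither way (limma adjusted p = 0.695).

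Hox genes, which record the position of a tissue along the body axis, were higher in kidney in 19 of 19 tested, with a median of 2.66. Another 9 of the 28 in the table did not pass the filter on low values, so the 19 are the members with the higher levels. Of the 19, 17 reached 1 FPKM in kidney alone and 10 of these were listed at 0 in both livers, so the count and the median carry no support of their own. The Hox genes of the table summed to 249 and 323 FPKM in male and female kidney, against 6.502 and 4.50 FPKM in liver. Hoxd8 had 51.4 and 131 FPKM in male and female kidney with both livers listed at 0. Hoxd9 had 46.8 and 42.8 FPKM in male and female kidney, against 0 and 0.111 FPKM in liver. Hoxb6 had 34.6 and 24.9 FPKM in male and female kidney, against 2.94 and 0.488 FPKM in liver, the highest liver value among the 6 named. Hoxc6, Hoxb8 and Hoxd10 were listed at 0 in both livers. Male and female kidney had 20.02 and 14.2 FPKM of Hoxc6, 8.65 and 18.9 FPKM of Hoxb8 and 9.13 and 10.9 FPKM of Hoxd10. At least 18 of 19 were higher without each library in turn.

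Junction and keratin genes went both ways, with 8 higher in kidney, 7 lower and 7 neither of 22 tested (median -0.02, and 0.17 after rescaling). The shares of all genes tested were 15.3% higher and 17.1% lower. Leaving out the female kidney library left 7 higher and 4 lower, and leaving out the male kidney library 6 higher and 4 lower. Cldn10, a claudin of tubule tight junctions, had 131 and 107 FPKM in male and female kidney and was listed at 0 in both livers. Cldn8, of the distal nephron, had 18.9 and 34.3 FPKM in male and female kidney, against 0 and 0.114 FPKM in liver. Krt7, a keratin of duct-like epithelia, had 68.0 and 42.5 FPKM in male and female kidney, against 0 and 0.0904 FPKM in liver. Krt18, a keratin of hepatocytes, was lower in kidney with 3.33 and 2.84 FPKM in male and female kidney, against 183 and 148 FPKM in liver (difference -5.35 ± 0.21, limma adjusted p = 1.91e-05). Cldn14, a claudin first known from the inner ear, was lower too, with 0.0745 and 0.283 FPKM in male and female kidney, against 30.8 and 21.5 FPKM in liver. Epcam, an adhesion molecule of many epithelia, had 177 and 173 FPKM in male and female kidney, against 14.9 and 6.44 FPKM in liver (difference 4.02 ± 0.33, limma adjusted p = 0.000329).

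Genes used by nearly all cells were read in 2 lists. Of 20 oxidative phosphorylation genes tested in limma 0 passed in either direction and 0 had an unadjusted p under 0.05, with differences from -0.73 for Cox5b to 0.53 for Ndufs1 and a median of -0.06 (0.15 after rescaling). Of 24 cytosolic ribosome genes 6 were lower in kidney, against 17.1% of all genes tested, and 14 had an unadjusted p under 0.05 in limma. All 24 differences were negative, from -1.27 to -0.31. Among the 6 were RPS9 and Rpl4, with differences of -1.27 ± 0.30 and -1.22 ± 0.28 (limma adjusted p = 0.0185 and 0.0169). The list median was -0.77, and -0.55 after rescaling, when 2 genes were lower. In limma, 0 of the 24 passed without any 1 kidney or liver library, or without the animal as a block.

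Other cell types of the organs were followed through their own lists. Macrophage genes were lower in kidney in 11 of 12 tested, with a median of -2.51. Clec4f, of the liver's resident Kupffer cells, had 0.0137 and 0 FPKM in male and female kidney, against 93.1 and 59.9 FPKM in liver. Vsig4, a complement receptor of those cells, was listed at 0 in both kidneys with 17.2 and 25.0 FPKM in male and female liver. Cd5l, a secreted macrophage protein, had 0 and 0.0232 FPKM in male and female kidney, against 22.5 and 23.2 FPKM in liver. Cd14, a receptor for bacterial lipopolysaccharide, had 4.09 and 5.08 FPKM in male and female kidney, against 250.0 and 67.7 FPKM in liver. Csf1r, the growth factor receptor of all macrophages, passed neither way at 8.66 and 3.53 FPKM in male and female kidney, against 10.8 and 9.71 FPKM in liver. Endothelial genes went both ways, 3 higher, 4 lower and 6 neither of 13. For these counts and the stromal ones below, the shares of all genes tested were 15.3% higher and 17.1% lower. Clec4g, of the liver sinusoid, was listed at 0 in both kidneys with 40.8 and 24.4 FPKM in male and female liver, and Oit3, of the same cells, had 0 and 0.0198 FPKM in male and female kidney, against 13.6 and 14.4 FPKM in liver. Plvap, of fenestrated endothelium, was higher in kidney with 53.2 and 21.0 FPKM in male and female kidney, against 8.04 and 3.6 FPKM in liver. Emcn, of capillaries, was higher in kidney with 45.6 and 30.7 FPKM in male and female kidney, against 4.15 and 6.37 FPKM in liver. Of 10 stromal genes 2 were higher (1 without the male kidney or male liver library), 3 lower and 5 neither. Dcn, a matrix proteoglycan, was higher in kidney with 149 and 67.2 FPKM in male and female kidney, against 17.3 and 8.40 FPKM in liver. Col3a1, a fibrillar collagen, was lower with 16.1 and 10.4 FPKM in male and female kidney, against 56.7 and 79.5 FPKM in liver. Col3a1 missed without the female kidney library (-1.94, adjusted p = 0.0504).

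Markers of tissues next to the organs were checked in the same way. Bile duct markers, which kidney epithelium also expresses, were higher in kidney in 4 of 4 tested, among them Spp1, which encodes osteopontin, with 153 and 268 FPKM in male and female kidney, against 0.374 and 0.208 FPKM in liver. Adrenal genes summed to 1.98 and 1.28 FPKM in male and female kidney, against 1.34 and 2.00 FPKM in male and female liver, and none was tested. Pancreatic genes summed to 0.434 and 0.182 FPKM in male and female kidney, against 4.79 and 14.7 FPKM in male and female liver. Adipocyte genes summed to 5.08 and 66.7 FPKM in male and female kidney, against 18.4 and 12.4 FPKM in male and female liver. Adipoq, the adiponectin gene of fat cells, had 3.09 and 22.6 FPKM in male and female kidney and was listed at 0 in both livers. Its call (limma adjusted p = 0.00856) was lost without the female liver library (adjusted p = 0.0616). The 3 red cell genes and 2 lymphocyte genes tested passed neither way in limma, with 0 and 0 at an unadjusted p under 0.05. The red cell genes, which are haemoglobin chains and a haem enzyme, summed to 614 and 1174 FPKM in male and female kidney, against 1169 and 691 FPKM in male and female liver. The part of fat or blood in the results was not tested.

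The 227 genes high in both organs were chosen by their levels in kidney, liver, heart and brain, so those levels are a description. Their median was 61.0 and 39.7 FPKM in male and female kidney, and 138 and 93.8 FPKM in male and female liver, while it was 0.435 and 0.328 FPKM in male and female heart and 0.547 and 0.464 FPKM in male and female brain. A symbol was given for 219 of them. Just inside the limit of 2 units were Arhgap8 and Slc34a2, with margins of 2.00 and 2.01, and just outside were Acpp and Cd82, with margins of 1.99 and 1.99. Raising the margin to 3 left 113 genes and lowering it to 1 gave 471.

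Sugar metabolism and conjugation enzymes led the group by their margin, the gap in log2(FPKM + 1) between the lowest kidney or liver library and the highest heart or brain library. Cyp2c23 had a margin of 7.89, Pck1 had a margin of 7.33 and Fbp1 a margin of 7.17, whose kidney and liver levels are given above. Akr1c1, an aldo-keto reductase, had 202 and 240.3 FPKM in male and female kidney, against 158 and 167 FPKM in liver, and a margin of 6.93. Hgd, the homogentisate oxidase of tyrosine breakdown, had 265 and 169.9 FPKM in male and female kidney, against 678 and 546 FPKM in liver, and a margin of 6.86. Hgd passed as lower in kidney (limma adjusted p = 0.00464) and missed without the female liver library (adjusted p = 0.0509). Glyat, which joins glycine to acids such as benzoate, had 470.2 and 351 FPKM in male and female kidney, against 171 and 230.5 FPKM in liver (margin 6.54). It passed neither way (limma adjusted p = 0.0513), and its difference was 1.52 (adjusted p = 0.0432) without the female kidney library. Gsta2, a glutathione transferase, had 220.3 and 156 FPKM in male and female kidney, against 752 and 758 FPKM in liver (margin 6.58). Bhmt2, a homocysteine methyltransferase, had 173 and 102 FPKM in male and female kidney, against 848 and 487 FPKM in liver (margin 6.33). Sult1c2a, a sulfotransferase, had 368 and 451 FPKM in male and female kidney, against 117 and 101 FPKM in liver (margin 6.18). Slc17a3 and Slc17a1 were the only transporters among the 12 symbol-bearing genes of largest margin, with margins of 6.85 and 6.23. No heart or brain library exceeded 2 FPKM for any of the 12.

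**Figure D4:**
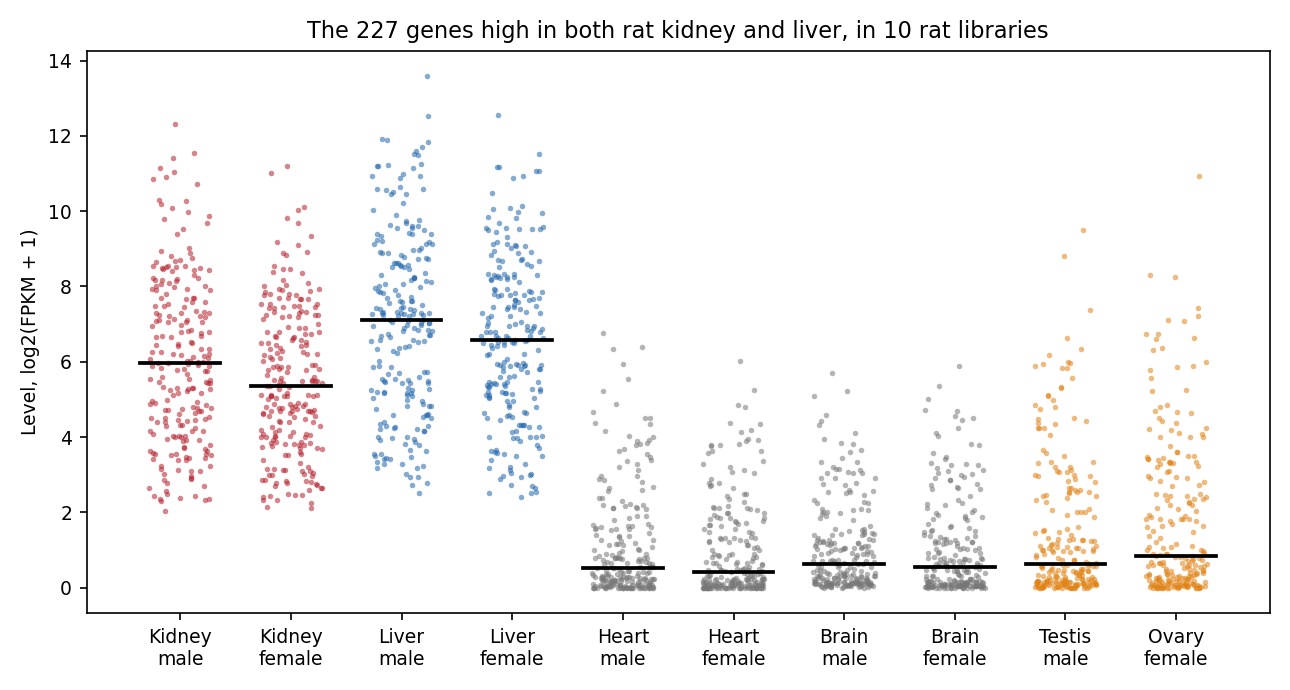
Each point is 1 of the 227 genes high in both organs in 1 library, as log2(FPKM + 1); black bars are medians. Kidney (red) and liver (blue) lie above heart and brain (grey) by the rule that chose the genes, and testis and ovary (orange), which the rule did not use, have medians of 0.551 and 0.776 FPKM.

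By list, the group took 8 of 14 genes of gluconeogenesis and hexose metabolism (57.1%) and 14 of 26 of amino acid catabolism (53.8%), against 1.11% of all rows. It took 5 of 28 P450 genes, 6 of 23 junction and keratin genes and 3 of 28 epithelial transcription factors, Hnf4a among them. The junction genes were Cldn1, Cldn2, Cldn3, Cdh1, Epcam and Krt8. Cldn2, a claudin of leaky epithelia, had 56.1 and 46.6 FPKM in male and female kidney, against 34.9 and 39.6 FPKM in liver, and passed neither way (limma adjusted p = 0.162). Cdh1, the epithelial cadherin, had 15.9 and 21.3 FPKM in male and female kidney, against 42.6 and 35.4 FPKM in liver. Krt8, the partner of Krt18, had 24.8 and 15.3 FPKM in male and female kidney, against 171 and 89.6 FPKM in liver. Cldn1 had 9.47 and 18.4 FPKM in male and female kidney, against 43.6 and 30.3 FPKM in liver, and Cldn3 had 15.3 and 4.54 FPKM in male and female kidney, against 206 and 42.7 FPKM in liver. Cdh1, Krt8, Cldn1 and Cldn3 were lower in kidney with all libraries, and each call was lost without 1 or more libraries. Without the female kidney library the limma adjusted p was 0.0632 for Cdh1, 0.0737 for Cldn3 and 0.0515 for Krt8. Without the male kidney library it was 0.164 for Cdh1, 0.176 for Cldn1 and 0.0631 for Cldn3, and without the male liver library 0.147 for Cdh1 and 0.178 for Cldn1. None of 31 genes of the loop, distal tubule and collecting duct list, of 28 Hox genes or of 20 oxidative phosphorylation genes belonged to the group.

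Between the organs themselves, 22 of the 227 were higher in kidney (9.69%, against 15.3% of all genes tested), 97 were lower (42.7%, against 17.1%) and 108 passed neither way. Their median difference was -0.72, and 93 lay within 1 unit of equality. The rule asked for a high level in both organs, so these shares carry no test. The range ran from -6.04 for the ethanol-oxidizing Cyp2e1 to 4.02 for Epcam. Testis and ovary were not used by the rule. The testis library was at least 2 units below the lowest kidney or liver library for 188 of the 227 genes, the ovary library for 172, and both for 155. At least as high as the lowest kidney or liver library were 16 genes in testis and 13 in ovary. The rule took genes with high kidney and liver levels, and no share over other genes was taken, so these counts are descriptions. Fbp1 was among the genes seen in testis, at 97.2 FPKM.

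The marmoset table of the same series, normalized on its own, allowed the same rule to be read in a second species. Of the 227 rat genes 146 matched a marmoset gene by symbol, and 57 of these (39.0%) met the rule there, against 142 of 11514 matched genes (1.23%). In 104 of the 146 every marmoset kidney and liver library was above every heart and brain library. No such share was taken over all 11514 matched genes, so the count of 104 is a description. The contrast of kidney with liver was read in the same way. Of 1288 matched genes higher in rat kidney, 499 (38.7%) were at least 1 unit higher in kidney in both marmosets and 51 (3.96%) at least 1 unit lower in both. Of 1265 matched genes lower in rat kidney, 544 (43.0%) were lower in both marmosets and 27 (2.13%) higher. Among 5275 matched genes that passed neither way in the rat, the shares were 4.95% higher and 6.03% lower. Within lists, 23 of 25 matched proximal tubule genes and 23 of 24 of the loop, distal tubule and collecting duct that were higher in rat kidney were higher in both marmosets. So were 13 of 13 Hox genes, while 13 of 13 apolipoprotein and lipoprotein genes and 13 of 13 complement genes were lower in both. Other lists were shared less fully. Of 7 matched podocyte genes higher in rat kidney, 5 were higher in both marmosets and 1 was lower in both. Of matched genes lower in rat kidney, 2 of 6 macrophage genes, 2 of 4 endothelial genes and 0 of 2 cytosolic ribosome genes were lower in both marmosets. Opposite in both marmosets were 1 of 2 peroxisome genes higher in rat kidney and the 1 matched renal endocrine gene lower in it.

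The animals agreed in sign for 10152 of 12173 genes tested. The genes whose difference between kidney and liver departed most between the male and the female, 5 in each direction, included enzymes, transporters and a hormone receptor. Cyp2c12, a P450 known as female-specific in rat liver, had 0.474 and 0.0371 FPKM in male and female kidney, against 3.73 and 4922 FPKM in liver, a difference of -1.68 in the male and -12.21 in the female. Prlr, the prolactin receptor, had 21.0 and 2.41 FPKM in male and female kidney, against 1.06 and 179 FPKM in liver, a difference of 3.42 in the male and -5.72 in the female. Akr1b7, an aldo-keto reductase, had 0.152 and 5.39 FPKM in male and female kidney, against 0 and 514 FPKM in liver. In another 3 genes male liver stood far above every other library. CYP2A2, a P450 known as male-specific in rat liver, was listed at 0 in both kidneys with 672 and 3.88 FPKM in male and female liver. Acnat2, an acyltransferase, had 0.02 and 0.0228 FPKM in male and female kidney, against 257 and 1.28 FPKM in liver, and Stac3, known from muscle, had 0.00324 and 0 FPKM in male and female kidney, against 136 and 1.11 FPKM in liver. Car3, a carbonic anhydrase of muscle and male liver, had 3.22 and 79.2 FPKM in male and female kidney, against 2663 and 195 FPKM in liver. Slc22a22, a relative of the organic anion transporters, had 154 and 1.02 FPKM in male and female kidney, against 0 and 0.0896 FPKM in liver, so male kidney stood above the rest. Ptgds, a prostaglandin synthase, had 65.1 and 3.66 FPKM in male and female kidney, against 0.15 and 10.2 FPKM in liver. The last of the 10 was Slc22a8, described above.

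Of the 10, Car3 (limma adjusted p = 0.0497) and CYP2A2 (limma adjusted p = 0.0347) passed as lower in kidney. Car3 missed without the male kidney or male liver library (adjusted p = 0.260 and 0.295). Its call also ended with kidney and liver libraries alone (adjusted p = 0.0946), rescaled libraries (0.0585), a pseudocount of 0.1 (0.0557), no filter on low values (0.138) and no animal block (0.0601). CYP2A2 missed without the female or male kidney library (adjusted p = 0.122 and 0.322). Without the male liver library Cyp2c12, Akr1b7 and Prlr passed with differences of -11.84 (adjusted p = 0.000237), -6.93 (adjusted p = 0.00335) and -5.00 (adjusted p = 0.0158). Acnat2 and Stac3 passed without the female liver library, with differences of -7.92 (adjusted p = 0.000118) and -7.09 (adjusted p = 0.000118), and without the male liver library, with -1.22 (adjusted p = 0.00956) and -1.08 (adjusted p = 0.00995). Slc22a22 passed without the female kidney library (7.25 (adjusted p = 0.00188)). With 1 library of each sex the difference between the animals was not tested.

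A list of 15 genes known to differ between the sexes in rat liver or kidney was also read, of which 13 were found in the table. Of 10 tested 2 were higher in kidney, 3 lower and 5 neither, against 15.3% higher and 17.1% lower of all genes tested. Without the female kidney library 1 was lower, and without the male liver library 5 were lower and 3 higher. In liver, 4 of the 10 were at least 1 unit higher in the male and 4 in the female. Cyp2c13, a P450 known from male rat liver, had 2780.1 and 0.960 FPKM in male and female liver and was listed at 0 in both kidneys. Hsd3b5, a steroid reductase of male rat liver, had 209 and 0.0257 FPKM in male and female liver and was listed at 0 in both kidneys. Cyp2c7, described above, was higher in female than in male liver. Each liver library thus carried the genes known for the sex on its label.

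**Figure D5:**
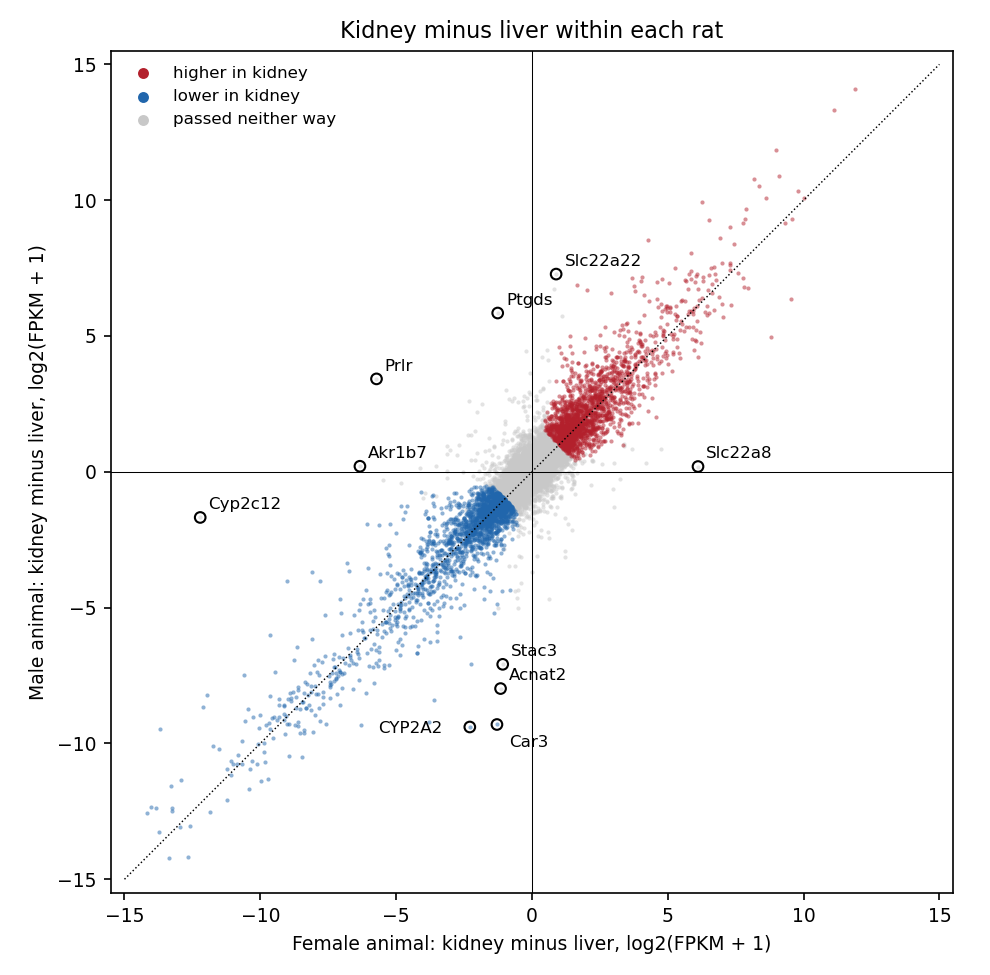
Kidney minus liver on the log2(FPKM + 1) scale in the male animal (vertical) and the female animal (horizontal), 1 point for each of 12173 genes tested; red and blue points passed as higher and lower in kidney, the dotted line marks equal differences, and circles mark the 10 genes whose differences depart most between the animals. Most genes lie along the line, while Cyp2c12 (-1.68 in the male, -12.21 in the female) and Prlr (3.42 in the male, -5.72 in the female) lie far from it.

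Some genes were listed at 0 in 1 library of an organ and at 50 FPKM or more in the other, 17 rows in all. Of these, 10 were listed at 0 in female liver and high in male liver, among them Mup5, a major urinary protein, at 707 FPKM in male liver in 1 of its 2 rows, and Spink3, a protease inhibitor, at 98.6 FPKM. A row with no symbol reached 34183 FPKM in male liver and was listed at 0 in female liver. The reverse held for 4 rows, among them A1bg, a plasma glycoprotein gene, at 3367 FPKM in female liver, and Sult2a2, a sulfotransferase, at 692 FPKM. Cyp2c11, a P450 known as male-specific in rat liver, had 115 and 0 FPKM in male and female kidney, against 2352 and 0.445 FPKM in liver, and passed neither way (limma adjusted p = 0.342). Of the 17 rows 12 were not tested, because the filter asked for 1 FPKM in 2 of the 4 libraries.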

How the data were processed

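The deposited rat table held FPKM per gene for each library, made by the authors and normalized across tissues as its name says. TopHat 1.4.0 and Cufflinks 2.0.0 are named in the submitters' processing notes, while the sources used here do not give the genome build, the annotation or the normalization method. The labels describe library preparation for marmoset and elephant, so the strand setting of the rat libraries is unknown and overlapping or antisense genes are uncertain. Depth could not be recovered: in ratios of low values between libraries, no bin 0.02 wide on the log2 scale held more than 0.989% of genes. A further 12 value columns of other tables were not used. The 2 brain columns match frontal cortex and cerebellum samples without saying which.

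Values were taken as log2(FPKM + 1) without 13 mitochondrial rows, and 12173 of 20473 rows with at least 1 FPKM in at least 2 of 4 libraries were tested. The fit used limma 3.58.1 in R 4.3.3 on 6 libraries of kidney, liver and heart, with tissue and animal as terms, two-sided, with 2 residual degrees of freedom among samples and Benjamini-Hochberg adjustment. A gene passed at an adjusted p under 0.05 and a difference of at least 1. Male minus female deviations correlated across genes at 0.546 between kidney and liver, 0.503 between kidney and heart and 0.450 between liver and heart, and the labels give each sex the same individual number, so animal was kept as a block. The p-values rest on the spread left after the tissue and animal terms, over kidney, liver and heart of 2 animals. For each gene limma drew that spread toward a trend with mean level across genes, with 3.91 prior degrees of freedom.

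A gene listed at 0 in 1 library has a difference that depends on the pseudocount, and one listed at 0 in both libraries of an organ is given by its levels alone. A symbol on several rows was read from the row with the highest mean in kidney and liver. Near-identical families (kallikreins, P450s, major urinary proteins, serpins) can share reads and are uncertain. Heart and brain served the rule for genes high in both organs. The marmoset table, also in FPKM as deposited and normalized apart, was matched by symbol and described without a test.

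The comparison, the 31 gene lists and the 14 pairs were chosen with earlier results of these data known. Named by rule were the 10 genes with the largest difference in each direction, the 12 with the largest margin in both organs, the 5 with the largest departure between animals in each direction, up to 6 members of each list by size of difference with those against its trend, the pairs, and rows at 0 in 1 library of an organ. Other genes were named after their values were seen, and some genes are not reported here. Alternatives were another pseudocount, other filters, rescaled libraries, no block, fewer libraries, zeros as missing, other margins and each library left out. Python 3.11.15, pandas 2.3.3, numpy 2.4.6 and matplotlib 3.10.9 were used.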

Additional observations from a re-analysis of the deposited data

Results flagged for a closer look

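Some genes differed in opposite directions in the animals, by at least 1 unit of log2(FPKM + 1) in each. With 1 library of each organ per animal, none of these differences between the male and the female was tested, and sex cannot be told apart from individual. Over all genes tested 19 went opposite ways by this much, 13 of them higher in kidney in the male and 6 in the female, and 0 of the 19 passed in limma. The 8 named genes were chosen after their values were seen.

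In 4 genes the male animal had more in kidney than in liver and the female less. Pnpla3, a lipase-like protein of fat and liver, had 7.28 and 5.19 FPKM in male and female kidney, against 0.795 and 24.3 FPKM in liver, a difference of 2.21 in the male and -2.03 in the female. Ptgds, a prostaglandin synthase, gave 5.84 in the male and -1.26 in the female. Prlr, the prolactin receptor, gave 3.42 in the male and -5.72 in the female, and female liver held its highest level.

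Lifr, the receptor for leukaemia inhibitory factor, had 3.53 and 27.2 FPKM in male and female kidney, against 0.672 and 57.0 FPKM in liver, a difference of 1.44 in the male and -1.04 in the female. Cfd, the adipocyte product adipsin, went the other way, with 1.22 and 30.2 FPKM in male and female kidney, against 18.4 and 12.4 FPKM in liver, a difference of -3.13 in the male and 1.22 in the female. The adipocyte list, which holds Cfd, summed to 5.08 and 66.7 FPKM in male and female kidney. Of its other members Adipoq had 3.09 and 22.6 FPKM and Retn, the resistin gene, 0.712 and 11.5 FPKM in male and female kidney, and both were listed at 0 in liver. The part of fat in the level of Cfd was not tested. Without the female kidney library the difference of Cfd was -3.12 (adjusted p = 0.00947).

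Another 3 are genes of sperm. Prm1, a protamine, had 5.06 and 0 FPKM in male and female kidney, against 0 and 4.04 FPKM in liver and 5435 FPKM in testis, a difference of 2.60 in the male and -2.33 in the female. Smcp, a mitochondrial capsule protein, had 1.87 and 0 FPKM in male and female kidney, against 0 and 3.28 FPKM in liver and 5555 FPKM in testis, a difference of 1.52 in the male and -2.10 in the female. Oaz3, an antizyme of polyamine synthesis, had 5.23 and 0.642 FPKM in male and female kidney, against 0.098 and 4.90 FPKM in liver and 9442 FPKM in testis, a difference of 2.50 in the male and -1.84 in the female. For all 3, male kidney and female liver were the higher libraries of those organs. All 3 belong to the 40 testis genes. Without the 5 of the 40 that went opposite ways in the animals, 32 and 14 of the other 35 were above 0 in male and female kidney, against 8 and 30 in male and female liver. The pattern was not limited to these organs. Of the same 35, 11 and 32 were above 0 in male and female heart, 34 and 32 in male and female brain and 32 in ovary. The part of testis RNA in these values was not tested.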

How the results depend on the processing

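Against 1866 genes higher and 2081 lower in kidney, fitting kidney and liver libraries alone gave 1855 and 2097, a pseudocount of 0.1 gave 2191 and 2317, no filter on low values gave 1701 and 1808, and rescaled libraries gave 2182 and 1696. A filter of 5 FPKM left 1079 higher and 1854 lower, with fewer genes tested. The replicate block, which pairs libraries of 1 animal, moved counts by less than 1.5 times: no replicate block gave 1598 and 1513. Dropping it ended the call of 13 of 214 named genes: Slc5a2, Slc34a3, Hao2, Crat, RPS9, Rpl4, Nudt19, Atp6v0a1, Car3, CYP2A2, Alb, Pc and Slc37a4. Calls also ended for Cdh1, Nudt19, Atp6v0a1, Car3, Pc and Slc37a4 with rescaled libraries, for Slc34a3, Pklr, Car3 and CYP2A2 with kidney and liver alone, for Hao2 and Car3 with a pseudocount of 0.1, and for 12 genes with no filter: Slc5a2, Slc34a3, Alb, Hao2, Crat, Pklr, Cldn1, Prodh2, Car3, CYP2A2, Pc and Slc37a4. Leaving out each kidney or liver library in turn gave 1332 to 1640 higher and 1125 to 1614 lower; the lone library left in an organ was then assumed to vary like the others. The lowest counts lower in kidney came without the female kidney library (1125) and the male kidney library (1241). Genes high in both organs numbered 471 at a margin of 1, 113 at a margin of 3, 217 with rescaled libraries, 339 with a pseudocount of 0.1, 304 against heart alone, and 239 to 315 without 1 kidney or liver library. Of the named genes, 14 to 16 lost their call without any 1 library. The difference of Prm1 was -2.09 without the male and 2.35 without the female kidney library (0.13 with both), that of Oaz3 -1.72 and 2.38 (0.33 with both), and that of Smcp -2.24 and 1.66 (-0.29 with both). The cause of these shifts was not tested. Depth is unknown for these values, so small differences at low levels carry no counting limit, and with 2 libraries an organ the spread between animals is poorly measured.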
